A study of Mus musculus with 2 samples.

Results

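The cytosolic ribosomal protein genes encode the protein part of the ribosomes that work outside mitochondria. They were taken by symbol: Rpl or Rps followed by a number, the stalk genes Rplp0 to Rplp2, and Rpsa, without the Rps6k kinases and without rows named as pseudogenes by the suffix -ps. The rule matched 86 symbols, of which Rpl10l had no unique molecular identifier (UMI, standing for a single captured transcript), and so gave 85 genes of the 31053 rows of the table. Of these, 51 belong to the large and 34 to the small subunit by name. Rps19bp1 matches the rule although its product is a protein that binds ribosomal protein S19, not part of the ribosome. It held 107 injured and 3 uninjured UMIs. The rows left out were small, with 480 UMIs in the -ps rows and 559 in the Rps6k rows, against 551873 in the 85 genes.

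The ribosome has a small subunit, which reads the message, and a large subunit, which joins the amino acids and holds the tunnel through which the new chain leaves. Its proteins are needed in matched amounts, and their messages are among the most abundant in most cells. Most of these messages start with a run of pyrimidines, the terminal oligopyrimidine (TOP) tract, through which the kinase complex mTORC1 and the protein Larp1 set their translation together.

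Cells of the mouse optic nerve labelled as microglia and macrophages were profiled by 3' droplet RNA sequencing (10x Genomics, chemistry v2), which counts the tail end of messages. Both groups were wildtype mice of strain 129S1/SvlmJ and of both sexes, stated to be 10 weeks old in the series' text, while the sample labels give postnatal day 56. In the injured group the nerve had been crushed at 8 weeks and cells were taken 2 weeks later; the uninjured group had no treatment. With 1 library per group, and no source used here giving the number of animals behind it, a difference between injured and uninjured cells could not be checked on replicates and was not tested. The bounds in parentheses are 95% intervals, exact for the counts: Poisson for a level, Clopper-Pearson for a percentage and conditional binomial for a ratio. They reflect counting error alone.

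Injured cells numbered 727, with 500 to 53972 UMIs each, and uninjured cells 51, with 458 to 11100 UMIs; none of the 778 barcodes was shared by both. All 16 genes on a fixed microglia and macrophage list were seen in each library, at a summed 51704 and 28229 CPM (UMIs scaled to a total of 1000000 in the library or class). C1qa, a complement gene of these cells, was in 89.1% and 84.3% of cells, and Tyrobp in 89.1% and 62.7%. Others were in fewer: Csf1r in 54.7% and 66.7%, Cd68 in 54.9% and 25.5%, and Cx3cr1 in 36.3% and 41.2%. Unlike the summed list, Csf1r (823 and 1771 CPM) and Cx3cr1 (588 and 823 CPM) were lower in the injured library. Cells were divided by the rule that defines the present comparisons into deep cells, with at least 5000 UMIs, and shallow cells that were rich or poor in Malat1, a long RNA retained in the nucleus, with 1% of UMIs as the divide. This gave 144 deep, 91 Malat1-rich and 492 Malat1-poor cells in the injured library and 4, 17 and 30 in the uninjured one. In 1 of the 4 deep uninjured cells haemoglobin took 91.8% of 11100 UMIs, so the main shares, counts and ratios of uninjured cells are also given without it.

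What the genes share beyond their names was first looked for in sequence. RefSeq start windows on build GRCm38.p6, 250 bases before and 50 after each annotated start, were found for 65 of the 85 genes. From 30 bases before to 50 after the start, the letters CTCTTTC, all pyrimidines as in a TOP tract, stood on the gene's own strand in 11 of the 65 (16.9%) and in 1.05% of all 27025 genes with a window. On the opposite strand they stood in 1.54% and 1.02%. The overlapping letters CTTTCC stood in 27.7% and 3.70% on the gene's strand and in 3.08% and 3.49% on the other, and either of these on the gene's strand in 33.8% and 4.36%. CCGGAAG, the letters bound by ETS factors, stood in 15.4% and 2.40% on the gene's strand and in 4.62% and 2.36% on the other. These are matches of letters, annotated starts can lie some bases from the true ones, and a gene without a match lacks only these letters in this window. The windows of 7 genes that stand at the ends of the comparisons below, with the matched letters CTCTTTC or CTTTCC in capitals, read 5′ to 3′ on the gene's strand.
Rpl28 (chr7:4792957-4792986, plus strand, match from base 1 of the transcript): tcgtgtctCTCTTTCcgtctccggccgcca
Rpl35 (chr2:39005110-39005139, minus strand, match from base 1): gccctttcCTCTTTCtctcgaaccaggctg
Rpl18 (chr7:45718064-45718093, plus strand, match from base 2): gcaggccgCTCTTTCcccgcccactccggc
Rps26 (chr10:128626480-128626509, minus strand, match from base 6): gccggatcCTCTTTCgagtcttggctccaa
Rpl13a (chr7:45128715-45128744, minus strand, match from base 10): acctcctcCTTTCCcaggcggctgccgaag
Rpl26 (chr11:68901581-68901610, plus strand, match from base 24): gtgtagttCTCTTTCcttttgcggccatcg
Rpl6 (chr5:121204521-121204550, plus strand, match from base 34): cgctgccttagttCTCTTTCccgtcttgca

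In 4 of the 7 the matched letters begin within 6 bases of the annotated start, and in the others they lie further into the transcript. The pyrimidines around them can reach further than the match, as in Rpl13a. Some windows not shown had their first match before the annotated start. Among them were Rpl5, also one of the lowest after injury, at base -20, Rpl4 at -17 and Rps15a at -13. Of the 7 genes shown, Rpl13a was among the lowest of the family after injury, and Rpl18 and Rpl6 were among the highest. Rps26 was among the highest in Malat1-poor cells. Rpl26, Rpl28 and Rpl35 were among the 6 members lowered most in Malat1-rich cells, where Rps7, not shown here, was the lowest.

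The 85 genes took 14.6% of injured UMIs (539768 UMIs) and 13.8% of uninjured UMIs (13.6 to 14.1, 12105 UMIs), a share 1.06-fold higher after injury (1.04 to 1.07). This small difference had no stable direction. Without the haemoglobin-rich cell the uninjured share was 15.5% and the ratio 0.940 (0.923 to 0.957). With each cell weighted equally the mean shares were 15.6% and 16.5%. A single uninjured cell of 8863 UMIs held 2226 ribosomal protein UMIs, 18.4% of the uninjured total, and without it the ratio was 1.16.

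Under the nearly equal totals lay cells of very different make-up. The share of a cell ranged from 0.598% to 43.6% in the injured and from 0.983% to 40.1% in the uninjured library. In the injured library it had an SD over cells of 7.07 percentage points, where counting error alone gives 1.05. In the uninjured library these were 12.2 and 1.15.

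**Figure D1:**
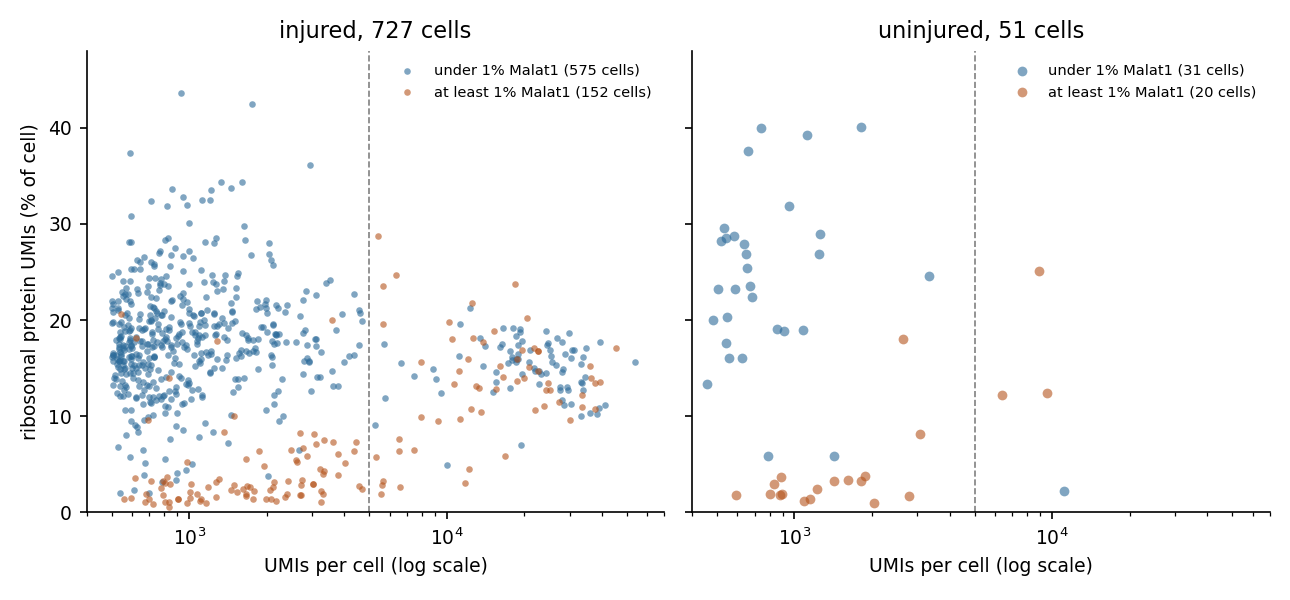
Each point is a cell, with its UMIs on a log axis against the percentage of them in the 85 ribosomal protein genes, in the injured (left) and uninjured (right) library; orange cells have at least 1% Malat1, blue cells less, and the dashed line is at 5000 UMIs. Left of the line the orange cells lie mostly under 5% and the blue cells mostly between 10% and 40%, and right of it the colours overlap.

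The largest difference within the family's share was between shallow cells rich and poor in Malat1. Injured Malat1-rich cells held 4.41% ribosomal protein UMIs (4.32 to 4.51, 7777 UMIs) and injured Malat1-poor cells 18.4% (18.3 to 18.5, 104600 UMIs), a 4.17-fold lower share (4.07 to 4.26). In the uninjured library the shares were 4.70% (4.44 to 4.96, 1203 UMIs) and 24.9% (24.4 to 25.4, 6465 UMIs), 5.30-fold lower (4.99 to 5.65). Both libraries showed the same direction, and the intervals of the 2 sizes did not overlap. These intervals cover counting error and not the spread over cells. In the uninjured Malat1-rich class 1 cell of 2646 UMIs had a share of 18.1%, beside a median cell share of 2.46%. The class share of 4.70%, and the ratios that use it, lean on that cell. Cell by cell, 72.5% of the 91 injured Malat1-rich cells and 15 of the 17 uninjured ones had a share under 5%, against 2.03% of the 492 injured Malat1-poor cells and none of the 30 uninjured ones.

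Along the Malat1 scale the largest change in injured shallow cells lay at 1%. The share was 18.7% under 0.25% Malat1, 17.0% from 0.25% to 0.5%, and 15.4% from 0.5% to 1% (38 cells). It was 5.86% from 1% to 2% (21 cells), 5.09% from 2% to 4%, and 3.07% above. In the uninjured library the median cell share was 24.6% in 29 cells under 0.25% and 1.91% in 13 cells above 4%. Few uninjured cells lay between: 1 at 0.25% to 0.5% with 5.84%, 1 at 1% to 2% with 18.1%, and 3 at 2% to 4% with 2.64%. A Malat1 share is a range and not a cell type. With Malat1, mitochondrial and haemoglobin UMIs out of the total the ratio of Malat1-rich to Malat1-poor cells was 0.282, beside 0.240 with them.

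**Figure D2:**
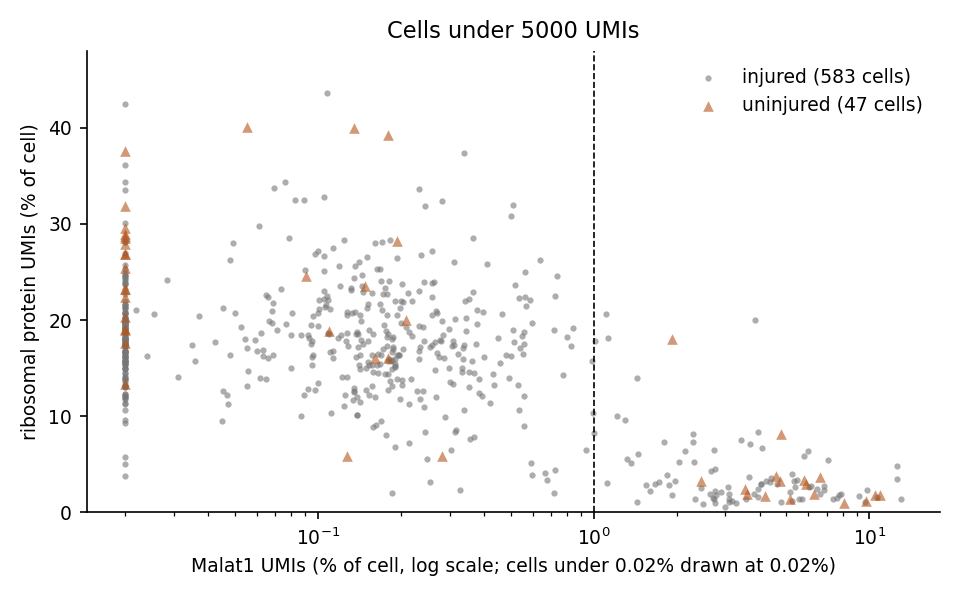
Each point is a cell under 5000 UMIs, with its Malat1 percentage on a log axis against its ribosomal protein percentage; grey circles are injured and orange triangles uninjured cells, and the dashed line is the 1% divide. Nearly all cells right of the line lie under 10% in both libraries, and most cells left of it lie above.

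Other measures moved with this divide. The median mitochondrial share was 10.7% in injured Malat1-rich and 0.503% in injured Malat1-poor cells, but 3.11% and 8.11% in the uninjured library, where the order was turned. The microglia and macrophage list was at 18743 CPM in injured Malat1-rich and 44103 CPM in injured Malat1-poor cells, with all 16 genes seen in both, and at 31390 and 31098 CPM in the uninjured ones, with 14 and 15 genes seen. A T cell list of 6 genes stood at 210 CPM in injured Malat1-rich (37 UMIs) and 1.76 CPM in Malat1-poor cells (1 UMI). An astrocyte list of 5 genes stood at 494 and 204 CPM, with 3 and all 5 genes seen. Markers of neutrophils stood at 335 and 107 CPM and of endothelial cells at 131 and 61.5 CPM. Those of myelin-forming cells went the other way, at 2729 and 5144 CPM. In the uninjured library the astrocyte list was at 3241 CPM in Malat1-rich cells, through 1 gene, and at 231 CPM in Malat1-poor cells. Their part in the result was not tested.

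In deep cells the divide lost most of its weight. The 61 deep injured cells with at least 1% Malat1 held 13.7% ribosomal protein UMIs (13.6 to 13.7) and the 83 with less held 14.9% (14.9 to 15.0). By depth, injured Malat1-rich cells went from 3.59% at 1000 to 2000 UMIs through 4.77% at 2000 to 5000 to 12.7% at 5000 to 15000 UMIs. Injured Malat1-poor cells went from 19.6% through 18.1% to 15.3% over the same depths. Deep injured cells as a whole held 14.5% (14.4 to 14.5), 1.27-fold less than Malat1-poor cells (1.26 to 1.28) and 3.28-fold more than Malat1-rich ones (3.21 to 3.35).

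Between the libraries the clearest difference lay in Malat1-poor cells, where the share was 1.35-fold lower after injury (1.32 to 1.39). Over cells the quartiles were 14.9% and 21.1% in the injured and 19.0% and 28.7% in the uninjured library. The injured median, 17.8%, lay below the lower uninjured quartile, and the uninjured median, 24.1%, above the upper injured one. A share under 20% was seen in 68.3% of the injured and 33.3% of the uninjured cells. The full ranges still overlapped widely, at 2.01% to 43.6% and 5.84% to 40.1%. In Malat1-rich cells the ratio was 0.940 (0.884 to 0.999), and it was 1.26 with the divide at 0.5% or at 2%. In deep cells the share was 1.17-fold higher (1.14 to 1.21), which turned to 0.857 (0.831 to 0.884) without the haemoglobin-rich cell, on 3 uninjured cells with shares of 12.2%, 12.4% and 25.1%. Markers of myelin-forming cells, all 8 seen in each group, stood at 18459 CPM in uninjured and 5144 CPM in injured Malat1-poor cells, and neuronal markers (5 genes) at 1040 CPM through 1 gene and 17.6 CPM through 2. Their part in the lower injured share was not tested.

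The members differed widely in level. Over both libraries 77 of the 85 had at least 1000 UMIs, with injured levels of 314 to 7121 CPM, and 4 had under 200: Rpl3l with 2 injured UMIs and none uninjured, Rpl39l with 38 and none, Rps19bp1, and Rpl7l1 with 147 and 5. The 8 most abundant were Rps29, Rpl41, Rps24, Rpl37a, Rpl23, Rplp1, Rpl13 and Rpl39, which held 21.1% of injured and 21.7% of uninjured ribosomal protein UMIs. A 3' method counts a message once whatever its length, but these levels also depend on how much of each message's end can be mapped to a single gene. Of the last 300 bases of the members' annotated transcripts (GENCODE vM21), a median of 50% of the 50-base words also occur in another annotated gene. The share was over 50% in 42 members and above 0 in 74, and for 72 of these the other genes included pseudogenes. Over the 85 members it had a Spearman correlation of -0.03 with the UMI count, a description over genes of the same libraries.

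Rps29, a small zinc-binding protein of the small subunit head, led in both libraries, at 7121 CPM (7035 to 7207) in the injured and 8629 CPM (8024 to 9267) in the uninjured one. By class it stood at 7028, 1702 and 9280 CPM in deep, Malat1-rich and Malat1-poor injured cells, and at 8098, 2304 and 15607 CPM in the uninjured ones. It thus followed the family's order in the injured library. Large subunit genes held 1.24 times the UMIs of small subunit genes in the injured library and 1.18 times in the uninjured one. That ratio ranged from 1.23 to 1.26 over the injured classes and from 1.16 to 1.27 over the uninjured ones, with 1.15 in deep uninjured cells without the haemoglobin-rich one.

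Nearly every member showed the difference on its own. In the injured library 84 of the 85 were at least 1.5-fold lower in Malat1-rich than in Malat1-poor cells and none was higher, beside 36% of all 4021 genes compared that were lower and 38.3% that were higher. The other member was Rpl3l, with no UMI in either class, and 1 of the 84, Rpl39l, had no UMI in Malat1-rich cells and 15.8 CPM in Malat1-poor ones, under the 17.0 CPM that a count of 0 allows, which leaves 83 with a direction that can be read. A call, here and below, is a ratio of CPM plus 10 of at least 1.5 in either direction, and a gene was compared if 10% or more of 1 library's cells held it. That filter passed 83 members and not Rpl3l and Rpl39l, and counts are given over all 85. The percentages over all genes compared, here and below, were not limited to genes whose direction could be read. The median log2 ratio of the 85 was -2.01, with the middle 50% between -2.23 and -1.81; over all genes compared these were 0.02, -1.08 and 1.30. In the uninjured library 82 were lower and none higher, beside 29.7% and 44.8% of all genes compared, with a median of -2.42. The members without a call there were Rpl3l, Rpl39l and Rpl7l1, and by the same limit 80 of the 82 could be read, without Rps27l and Rps19bp1.

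**Figure D3:**
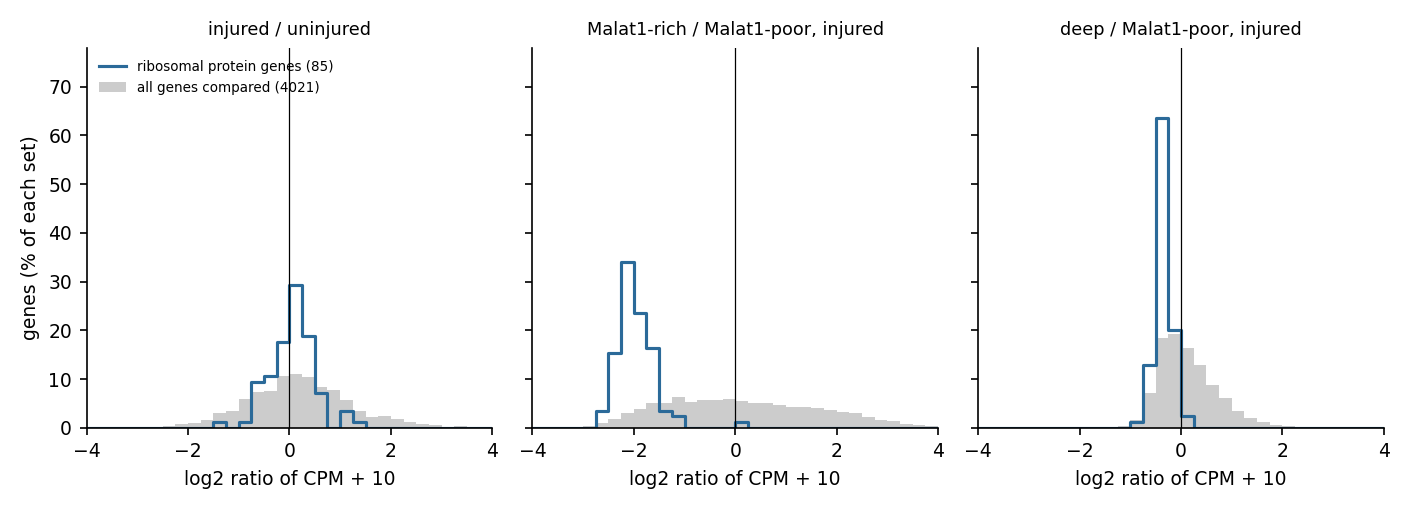
Histograms of the log2 ratio of CPM plus 10 in 3 comparisons, with the percentage of all 4021 genes compared as grey bars and of the 85 ribosomal protein genes as a blue line. The family's ratios lie in a narrow peak in each panel, at a median of 0.10, -2.01 and -0.33 from left to right, while all genes spread widely.

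Within this shared drop the members differed by less than their common change. The lowest ratios were those of Rps7, a small subunit protein that joins early, at 323 CPM in injured Malat1-rich and 2004 CPM in Malat1-poor cells, 6.20-fold lower (4.75 to 8.23), and of Rpl35, a protein at the tunnel exit, at 363 and 2240 CPM, 6.17-fold lower (4.80 to 8.06). Rpl26, Rps12, Rps29 and Rpl28 followed, 5.63, 5.55, 5.45 and 5.40-fold lower. The least lowered was Rps15, a protein of the small subunit head near the decoding site, at 255 and 533 CPM, 2.09-fold lower (1.52 to 2.92), and next Rpl23a, at the tunnel exit, 2.47-fold lower (1.59 to 3.99), and Rps21, 2.72-fold lower (2.36 to 3.16). Rpl10a, Rpl22l1 and Rps9 were 2.92, 2.95 and 2.98-fold lower. When each member was taken as a share of all ribosomal protein UMIs, which removes the family's own level, 3 of the 76 members with at least 20 UMIs in both classes were at least 1.5-fold higher (Rps15, Rpl23a and Rps21) and none was lower.

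Deep and Malat1-poor injured cells had nearly the same family profile. Against Malat1-poor cells 5 of the 85 were called lower in deep cells and none higher, beside 5.92% and 19.2% of all genes compared, and the median was -0.33 (middle 50% from -0.43 to -0.26) beside 0.03 over all genes compared. The 5 were Rps6, the substrate of the S6 kinases, at 536 and 935 CPM, 1.74-fold lower (1.58 to 1.92), and Rps27rt, Rps26, Rpl12 and Rplp1, 1.68, 1.64, 1.54 and 1.52-fold lower. Just outside was Rpl7l1, 1.48-fold lower (0.969 to 2.21). At the other end Rpl23a was level, at 324 and 322 CPM, and Rpl30, Rps2 and Rpl7a were 1.12 to 1.13-fold lower. As shares of the family's UMIs none of the 83 members with enough UMIs passed 1.5-fold in either direction. Against Malat1-rich cells 84 of the 85 were higher in deep cells and none was lower, beside 33.3% and 34.6% of all genes compared, and 83 could be read, without Rpl39l.

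The comparison of injured with uninjured libraries asked which members departed from the family. Of the 85, 7 were higher and 9 lower, beside 32.8% and 21.8% of all genes compared, so calls were rarer in the family in both directions. The 85 had a median uninjured level of 1554 CPM, while a gene compared needed only to be seen in 10% of 1 library's cells. The part of level and counting error in the rarer calls was not tested. The median log2 ratio of the 85 was 0.10, with the middle 50% from -0.19 to 0.32, beside 0.17, -0.49 and 0.82 over all genes compared. Higher were Rpl41, Rps2, Rpl18, Rpl22l1, Rpl36al, Rps27l and Rpl39l; the last had no uninjured UMI and an injured level of 10.3 CPM, under the 34.3 CPM that a count of 0 allows, so no direction can be read for it. Lower were Rpl13a, Rpl17, Rps15, Rps25, Rps6, Rpl5, Rpl23a, Rpl12 and Rplp1. The split moved to 5 higher and 13 lower without the haemoglobin-rich cell, beside 28.2% and 26.8% of all genes compared, to 4 and 18 with mitochondrial, haemoglobin and Malat1 UMIs out of the total (26.3% and 28.9%), and to 12 and 4 without the uninjured cell with most ribosomal protein UMIs (35.5% and 22.8%).

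A measure that does not depend on the total is each member's share of the family's own UMIs. By it 3 of the 78 members with at least 20 UMIs in each library were at least 1.5-fold higher after injury and 10 lower, and the same members passed without the haemoglobin-rich cell. The 3 were Rpl41, Rps2 and Rpl22l1, and the 10 were the 9 lower members above and Rps14.

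Rpl41, the smallest protein of the large subunit (chr10:128548114-128549305, minus strand, gene ENSMUSG00000093674.7 in GENCODE vM21), had the highest ratio among the members with at least 20 UMIs in each library. It was at 4659 CPM in the injured (17230 UMIs) and 2206 CPM in the uninjured library (193 UMIs), 2.11-fold higher (1.83 to 2.45). By class its injured levels were 4640, 1231 and 5819 CPM in deep, Malat1-rich and Malat1-poor cells, and its uninjured levels 2226, 742 and 3622 CPM, so the injured level was above the uninjured one in each class. Its share of the family was 2.00-fold higher overall (1.74 to 2.32), 1.78-fold in deep (1.43 to 2.24) and 2.18-fold in Malat1-poor cells (1.77 to 2.70). Gm10076, a row that shares 3' words with Rpl41, had 930 injured and 3 uninjured UMIs, beside 17230 and 193 for Rpl41 itself.

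Rps2, a protein of the channel by which messages enter the small subunit, was at 1942 CPM injured and 1154 CPM uninjured, 1.68-fold higher (1.38 to 2.07). Rpl22l1, a second copy of Rpl22, was at 478 and 286 CPM on 25 uninjured UMIs, 1.67-fold higher (1.13 to 2.59). Rpl18, a large subunit protein, was at 1563 and 1006 CPM, 1.55-fold higher (1.26 to 1.94). Without the haemoglobin-rich cell Rpl22l1 and Rpl18 had log2 ratios of 0.53 and 0.44 and no longer passed the call. The next members in order were Rpl24 at 1243 and 834 CPM and Rpl6 at 1940.0 and 1314 CPM, with ratios of 1.49 and 1.48, just under the call. With cells weighted equally Rps2 had a log2 ratio of 0.38 and no longer passed.

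Rpl13a, a large subunit protein known also for holding back translation of inflammatory messages after interferon (chr7:45125558-45128761, minus strand, gene ENSMUSG00000074129.14), was the lowest. It was at 159 CPM in the injured (589 UMIs) and 434 CPM in the uninjured library (38 UMIs), 2.73-fold lower (1.91 to 3.79). By class the levels were 156, 51.1 and 211 CPM in deep, Malat1-rich and Malat1-poor injured cells and 250.4, 117 and 1002 CPM in uninjured ones, lower after injury in each, although the uninjured values rest on 9, 3 and 26 UMIs. No uninjured cell held more than 13.2% of its uninjured UMIs, so they were spread over many cells. In the last 300 bases of its transcripts 48.3% of the 50-base words occur in another gene, and Rpl13a-ps1, a pseudogene row with shared words, held 5 injured and 2 uninjured UMIs.

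Rpl17, at the rim of the tunnel exit, was at 891 and 1760.0 CPM, 1.98-fold lower (1.67 to 2.32). Rps15 was at 452 and 766 CPM, 1.69-fold lower (1.31 to 2.16), and Rps25, which helps the ribosome to bind internal entry sites, at 487 and 777 CPM, 1.60-fold lower (1.23 to 2.03). Rps6 was at 583 and 926 CPM, 1.59-fold lower (1.26 to 1.98), and Rpl5, a partner of 5S RNA that also binds Mdm2, at 489 and 766 CPM, 1.56-fold lower (1.21 to 2.00). With cells weighted equally Rpl13a, Rpl17, Rps15, Rps25 and Rpl5 stayed past 1.5-fold, and Rps6 did not, with a log2 ratio of -0.48. Without the uninjured cell with most ribosomal protein UMIs Rpl5 and Rps6 did not pass, at -0.48 and -0.47, and without the deepest 5 uninjured cells Rps6 did not, at -0.50. Rpl13a and Rpl17 were 3.12 and 2.23-fold lower without the haemoglobin-rich cell.

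Within classes the counts were uneven. In Malat1-poor cells 31 of the 85 were lower and 3 higher, beside 19.8% and 47.8% of all genes compared. Of the 3, Rpl41 and Rps27l could be read, the latter on 2 uninjured UMIs with a ratio of 3.17 (0.861 to 26.4), and Rpl39l, with no uninjured UMI, could not. In Malat1-rich cells 12 were lower and 13 higher, of which 10 could be read, beside 30.7% and 36.4%. In deep cells 8 were lower and 19 higher, of which 17 could be read, beside 15% and 49.8%. Without the haemoglobin-rich cell 21 were lower and 5 higher, of which 3 could be read, beside 25.1% and 40.4%. The percentages of all genes compared can include genes with no uninjured UMI whose direction cannot be read. They therefore stand beside the full counts of members and not beside the readable ones.

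Departures from the family were then set side by side in deep and in Malat1-poor cells, which share no cell but come from the same 2 libraries. Over the 69 members with at least 20 UMIs in each group, Pearson's r of the log2 departures was 0.61 and Spearman's rho 0.58, and 48 had the same sign. With Malat1-rich cells, where 21 members could be compared, the values were 0.39, 0.26 and 11 for deep cells, and 0.09, 0.06 and 9 for Malat1-poor cells. Rpl17 was at -1.09 in deep and -0.96 in Malat1-poor cells, Rps25 and Rpl5 were below -0.58 in both, and Rpl41 was at 0.83 and 1.12. Others departed in 1 class: Rpl11, the second partner of 5S RNA, was at 0.94 and -0.07, on 28 deep uninjured UMIs, and Rps6 at -1.09 and -0.28. Without the haemoglobin-rich cell the deep values of Rpl17, Rpl41, Rpl11 and Rps6 were -1.12, 0.94, 0.86 and -1.13. In deep cells Rpl23a, Rps6, Rpl17, Rpl12 and Rplp1 were among the lowest members and Rpl11, Rpl41, Rps2, Rpl21, Rpl6 and Rpl37 the highest. In Malat1-poor cells Rpl13a, Rps15, Rpl17, Rps25, Rpl5 and Rpl27 were the lowest and Rpl41, Rpl18, Rps26, Rps2, Rpl24 and Rpl3 the highest. The uninjured deep values lean on few cells, with 1 cell giving 59.1% of the 22 uninjured Rpl23a UMIs and 48.6% of the 35 Rps6 UMIs. In Malat1-rich cells only 21 members had enough UMIs, and Rps14 alone passed 1.5-fold, at -1.40, with 48.4% of its 31 uninjured UMIs in 1 cell.

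**Figure D4:**
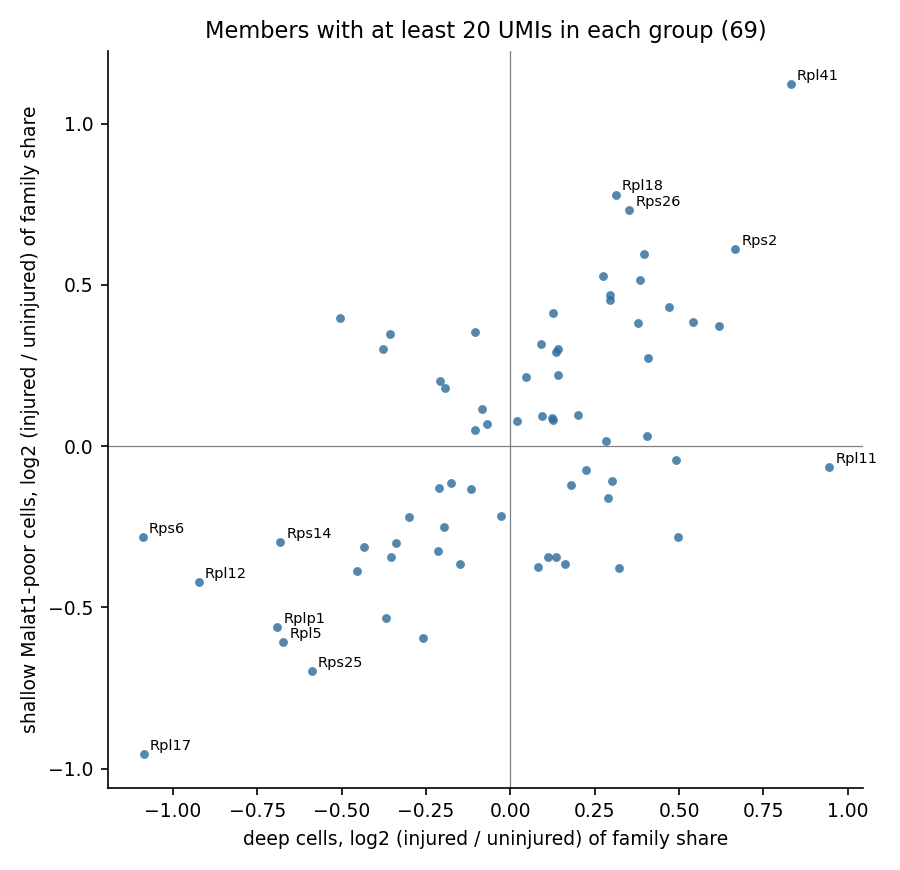
Each point is a ribosomal protein gene with at least 20 UMIs in each of the 4 groups, with the log2 ratio (injured over uninjured) of its share of the family's UMIs in deep cells on the horizontal and in shallow Malat1-poor cells on the vertical axis. Most of the 69 points lie in the lower left and upper right of the plot, with Rpl17 and Rpl41 at the ends, and Rpl11 and Rps6 stand apart from the diagonal.

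Grouped by place in the ribosome, the stalk genes Rplp0, Rplp1 and Rplp2, which recruit elongation factors, had 24709 injured and 723 uninjured UMIs, and their share of the family was 0.766 of the uninjured one (0.712 to 0.826). It was 0.801 without the haemoglobin-rich cell (0.742 to 0.866). It was 0.718 in deep cells, or 0.810 without that cell, 0.898 in Malat1-rich (0.690 to 1.18) and 0.841 in Malat1-poor cells. The decoding site pair Rps15 and Rps23 was at 0.737 (0.652 to 0.837), and the 8 genes around the tunnel exit at 0.898 (0.845 to 0.956). In deep and Malat1-poor cells the decoding pair was at 0.860 (0.691 to 1.08) and 0.706 (0.599 to 0.838). The tunnel exit genes were there at 0.858 (0.778 to 0.949) and 0.921 (0.846 to 1.00). The message entry pair Rps2 and Rps3 was at 1.20 (1.06 to 1.36), with 1.31 in deep (1.06 to 1.64) and 1.06 in Malat1-poor cells (0.893 to 1.27). The 5S RNA partners Rpl5 and Rpl11 were together at 0.969 (0.841 to 1.12), with Rpl5 lower and Rpl11 at 1789 and 1463 CPM. The stalk, tunnel exit and message entry genes also differed among themselves, so their values do not describe each gene. Between the libraries the log2 departures from the family were 0.05, -0.70 and -0.16 for Rplp0, Rplp1 and Rplp2. For Rps2 and Rps3 they were 0.67 and -0.11. For Rpl17, Rpl23a and Rpl35, placed above at the tunnel exit, they were -1.06, -0.72 and 0.03.

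Several members have a second gene copy by name. Whether the product of a copy can take the place of the main one was not tested. Rpl22l1 made up 30.8% of the UMIs of the Rpl22 pair in the injured library (29.6 to 32.0) and 22.3% in the uninjured one (15.0 to 31.2). Rpl36al made up 27.9% of its pair with Rpl36a (26.7 to 29.1) and 14.9% (8.93 to 22.8, 17 UMIs). Rps27l, known as a gene switched on by p53 (chr9:66946086-66949516, plus strand, gene ENSMUSG00000036781.13), made up 6.99% of its pair with Rps27 (6.49 to 7.52) and 2.36% (0.872 to 5.07, 6 UMIs). Over whole libraries the intervals of the last 2 pairs did not overlap, and those of Rpl22l1 did. Within classes the Rpl36al intervals overlapped in each, as in deep (26.8 to 29.6 and 9.05 to 35.6) and Malat1-poor cells (23.9 to 29.2 and 6.53 to 24.7). Those of Rps27l overlapped in deep (6.34 to 7.50 and 1.13 to 10.2) and Malat1-rich cells, and not in Malat1-poor cells (6.19 to 8.59 and 0.179 to 5.21). Rpl7l1 made up 3.72% and 5.32% of its pair with Rpl7, Rpl39l 0.346% and 0 of 267 uninjured Rpl39 UMIs, and Rpl3l 0.0306% and 0 of 114 Rpl3 UMIs.

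Rps27rt, a copy of Rps27 on another chromosome, made up 4.33% of its pair in the injured and 4.98% in the uninjured library. In the counted 3' end, 88.4% of the 50-base words of Rps27rt and 58.5% of those of Rps27 also occur in another gene, so the pair is uncertain. The copies are also alike at the other end, which is shown for the matched letters: both share a run of 38 bases that begins at base 2 of the Rps27 and base 1 of the Rps27rt transcript, of which the first 30 are given, with CTTTCC in capitals.
Rps27 (chr3:90213618-90213647, minus strand): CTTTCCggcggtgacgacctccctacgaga
Rps27rt (chr9:114982710-114982739, minus strand): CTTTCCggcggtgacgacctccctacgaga

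In the 144 deep injured cells, where depth allows it, members were followed from cell to cell. Of the 82 members seen in at least 50% of these cells, the median Spearman correlation of a member's share of UMIs with that of the other members together was 0.735. The highest values were those of Rpl23 at 0.865 and Rpl34 at 0.856. Rpl7l1 and Rps27l were the lowest, at 0.005 and -0.002, while Rpl22l1 was at 0.42. In these cells Rpl7l1 was at 37.9 CPM and Rps27l at 178 CPM, beside Rpl13a at 156 CPM with 0.45 and Rps27rt at 102 CPM with 0.42. The part of low counts in these values was not tested. All members and cells share a library, and a share of UMIs is bound to the other shares in the cell.

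Other genes were ranked by their correlation with the family's share in the same cells. Of 2581 genes the highest was Fau, whose product contains ribosomal protein S30 and which the symbol rule does not take, at 0.85, followed by the elongation factor genes Eef1a1 (0.71) and Eef1b2 (0.70) and by Naca (0.67), which binds new chains at the tunnel exit. Next were Pfdn5 (0.61), a prefoldin subunit, Eif3h (0.59), Npm1 (0.58), a nucleolar chaperone, Tpt1 (0.56), Rack1 (0.52), a protein bound to the small subunit, and Gm10076 (0.51). The lowest were Gla (-0.44), Ctsb (-0.43), Lrp1 (-0.41), Nptn (-0.40), Gpnmb (-0.39), Cd84 (-0.39), Spp1 (-0.38), Grn (-0.37), App (-0.37) and Dpp7 (-0.37). Gla, Ctsb and Dpp7 encode lysosomal enzymes. Spp1, which encodes osteopontin, was at 29367 CPM in the 36 cells with the lowest ribosomal protein share and 4432 CPM in the 36 with the highest, and Gpnmb at 1883 and 548 CPM, while Eef1a1 was at 3750 and 7006 CPM. Median depth in these sets of cells was 13006 and 17355 UMIs and median Malat1 1.40% and 0.917%.

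**Figure D5:**
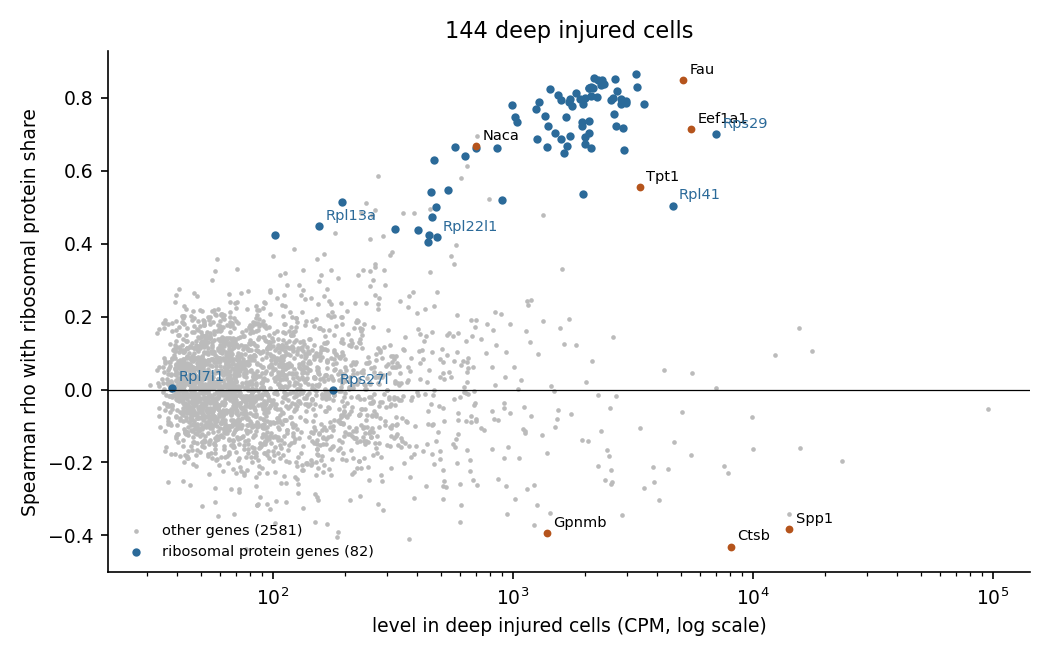
Each point is a gene seen in at least 50% of the 144 deep injured cells, with its level in CPM on a log axis against its Spearman correlation over cells with the ribosomal protein share; for the 82 members (blue) the share is that of the other members, and 2581 other genes are grey, with named ones in orange. The members lie mostly above 0.4 with Fau among them, while Rps27l and Rpl7l1 lie at 0, among the other genes.

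The genes around the ribosome were taken from fixed lists, whose counts stand beside 36% of all genes compared that were lower in the injured Malat1 comparison and 38.3% that were higher. In that comparison Fau and Rack1, ribosomal proteins outside the symbol rule, were 4.26-fold and 3.72-fold lower in Malat1-rich cells. Of 7 genes on the elongation factor list, which is not limited to the factors themselves, 6 were lower and 1 higher. Among them was Eef1a1, at 1839 and 7302 CPM, 3.97-fold lower (3.55 to 4.46). Of 31 initiation factors 17 were lower and 5 higher, among the latter Eif4g3, at 199 and 42.2 CPM. Of 8 other TOP messages 5 were lower, with Naca, Btf3 and Tpt1 between 3.80 and 4.26-fold, and of 16 ribosome biogenesis genes 6 were lower and 3 higher. Of 12 genes on a list of mTORC1 and translation control 6 were lower and 3 higher. That list mixes activators and inhibitors, so its counts give no direction for the pathway. In the same comparison 43 of 51 mitochondrial ribosomal protein genes, 72 of 76 nuclear genes of oxidative phosphorylation and 22 of 36 proteasome genes were lower. The biogenesis genes, with 6 of 16 lower, lay near the share of all genes. All 13 genes encoded in mitochondrial DNA were higher.

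Between injured and uninjured libraries the same lists gave mixed counts, beside 32.8% of all genes compared that were higher and 21.8% that were lower. Fau, at 5147 and 3520.0 CPM, had a ratio of 1.46, just under the call, and Rack1 was at 837 and 971 CPM. Of 7 genes on the elongation factor list none was higher and 1 lower, with Eef1a1 at 5630 and 3931 CPM, a ratio of 1.43 (1.29 to 1.60). Of 31 initiation factors 10 were higher and 2 lower, a share of higher genes near that of all genes, with Eif3f 3.13-fold higher on 10 uninjured UMIs. Of 8 other TOP messages 4 were higher, among them Vim (3.19-fold, 2.10 to 5.10) and Naca (1.77-fold, 1.27 to 2.55), and 1 was lower, Tpt1, at 3502 and 5669 CPM, 1.62-fold lower (1.48 to 1.77). Of 16 biogenesis genes 7 were higher and 3 lower, with Ncl 1.68-fold higher (1.06 to 2.85) and Gnl3 3.23-fold lower on 12 uninjured UMIs. Of 12 genes on the list of mTORC1 and translation control 6 were higher and 1 lower. Without the haemoglobin-rich cell 2 of the 8 other TOP messages were higher, and 7 initiation factors and 5 biogenesis genes. Of the mTORC1 and translation control list 5 were then higher and 2 lower. Both snoRNA host genes compared were lower, on 12 uninjured UMIs for the list.

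Mitochondrial ribosomal proteins are set beside the cytosolic ones for the same comparison. Of 51 compared, 32 were higher and none was lower, beside 32.8% and 21.8% of all genes compared, and the median log2 ratio was 0.86. For the cytosolic family the counts were 7 and 9 of 85 and the median 0.10. Nuclear genes of oxidative phosphorylation were higher in 41 of 76 cases and lower in none, and proteasome genes in 21 of 36 and none. Without the haemoglobin-rich cell these counts were 28 higher and 3 lower, 33 and 1, and 21 and 2, beside 28.2% of all genes compared that were higher and 26.8% that were lower. Of the 13 mitochondrially encoded genes 8 were lower and 1 higher, or 9 and 0 without that cell. These genes had few uninjured UMIs each, 187 for the whole mitochondrial ribosomal list, and the differences between the sets were not tested.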

How the data were processed

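The authors deposited 1 table of raw UMI counts covering the cells of both libraries, not normalized, with a line giving each cell's condition. Per the submitters' processing notes the tools were Cell Ranger 1.3, bcl2fastq 2.17.1.14 and Seurat 4.0.3 on build mm10; no source used here names the annotation release or the handling of reads that fit several genes. The series' text states a filter of 200 to 6500 genes per cell, and cells held 226 to 6089. No doublet caller was run, and how cells were chosen as macrophages or microglia is not given. UMIs were summed per library or class and divided by the total (CPM). Log2 ratios used a pseudocount of 10 CPM. Of all rows, 26 had names turned into dates; they stayed in totals and out of comparisons. The members, classes and gene lists were chosen with earlier results of these data known. Named were the 8 most abundant members, the 6 highest and 6 lowest per comparison with at least 20 UMIs in each group, second gene copies, up to 3 genes per list and the 10 genes at each end of the correlation; others were named after their values were seen. The steps were tested on simulated data. Alternatives were equal weights, other pseudocounts, totals, divides and cells left out. Python 3.11.15, numpy 2.4.6, scipy 1.17.1, pandas 2.3.3 and matplotlib 3.10.9 were used. Some genes are not reported here by name.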

Additional observations from a re-analysis of the deposited data

How the results depend on the processing

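With 1 library per group nothing below is a test, and no named member past the call changed sign, while the overall and deep ratios of the share crossed 1. No paired analysis was possible because each group had 1 library. Other totals, weights and divides moved the shares more than counting error, as follows; the cause was not tested. With equal weight per cell the injured and uninjured shares were 15.6% and 16.5% (ratio 0.946), and with mitochondrial, haemoglobin and Malat1 UMIs out of the total 15.2% and 17.2% (0.883). The uninjured share was 15.5% without the haemoglobin-rich cell (0.940), 14.2% without the deepest 5 cells (1.03) and 12.6% without the cell with most ribosomal protein UMIs (1.16).

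The injured to uninjured ratio in deep cells was 1.10 and 6.67 with the depth divide at 3000 and 10000 UMIs, 1.11 with equal weights, 0.807 with the reduced total and 0.857 without the haemoglobin-rich cell. The 6.67 rests on 1 uninjured cell, the haemoglobin-rich one, and has no value without it. In Malat1-rich cells it was 0.883 and 0.634 at these depths, 1.26 and 1.26 with the Malat1 divide at 0.5% and 2%, 1.15 with equal weights and 1.01 with the reduced total, and in Malat1-poor cells 0.676 with the reduced total. The ratio of injured Malat1-rich to Malat1-poor cells was 0.203 and 0.378 at the other depths, 0.318 and 0.227 at the other Malat1 divides, 0.230 with equal weights and 0.282 with the reduced total. That of deep to Malat1-poor cells was 0.780, 0.813, 0.781, 0.824 and, with the reduced total, 0.805.

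Members called higher and lower after injury numbered 4 and 18 with the reduced total, 4 and 1 at a 2-fold call (19.5% and 11.5% of all genes), and 12 and 4 without the cell with most ribosomal protein UMIs. Within the family 5 were higher without the deepest 5 cells. Members lower in deep than in Malat1-poor cells numbered 8 and 3 at the other depths, and 3 with the Malat1 divide at 2%, equal weights or the reduced total. With equal weights 0 ribosomal proteins outside the symbol rule, 2 genes of the elongation factor list and 1 initiation factor were lower. So were 3 genes of the mTORC1 and translation control list and 4 mitochondrial ribosomal protein genes. With a pseudocount of 1 CPM the last 2 lists had 2 each. The reduced total and the loss of the haemoglobin-rich cell for the classes, and the loss of the cell with most ribosomal protein UMIs, were chosen after seeing the data.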
